A study of Mus musculus with 19 samples.

Results

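Tongue epithelium that expresses the papillomavirus oncogenes E6 and E7 was compared with tongue epithelium that expresses E6-E7 together with an active form of YAP, across all genes measured. The comparison takes the 6 EY mice (E6-E7 and YAP) against the 5 E mice (E6-E7 alone), 11 of the 19 mice of the study, and every gene with at least 0.1 TPM in 3 or more of these 11 mice, which is 21959 of the 24689 genes in the table. TPM is a gene's share of all RNA in a sample after correction for the gene's length. The rule did not use any difference between the groups, so that difference could be tested. The question is what YAP adds once E6-E7 is present.

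All mice were 8 to 16 weeks old littermates, and polyA RNA of the whole tongue epithelium was sequenced 15 days after the transgenes were switched on. E mice carried Krt14-CreERT, LSL-rtTA and tetON_E6-E7, and EY mice carried the same alleles plus tetON_YAP1S127A. Y mice (3) carried Krt14-CreERT, LSL-rtTA and tetON_YAP1S127A without E6-E7. N mice (5) served as controls: 3 had Krt14-CreERT and LSL-rtTA alone, mouse 4 had LSL-rtTA without Cre, and mouse 5 had Krt14-CreERT with both effectors but no rtTA. The methods of the study also list a tetON_H2B-GFP reporter in its lines, which the labels do not name. Tamoxifen was injected into the tongue in 3 doses, 1 every other day, and doxycycline came with the chow. The epithelium was freed with collagenase and dispase and dissected off the muscle.

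The Krt14 promoter is active in basal keratinocytes, so Cre, and with it rtTA and the effectors, is switched on in those cells and kept in their descendants. The 4 groups are whole epithelia, in which switched and unswitched cells are mixed. The table lists no viral gene and no separate entry for the YAP transgene, and the level of either cannot be read from it. In bulk RNA, fewer cells of a type and less RNA per cell cannot be told apart. The labels give no sex and no batch. Reads assigned to genes, recovered from the TPM values, ranged from 8285602 to 9482472 in the E mice and from 8841013 to 11007304 in the EY mice.

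YAP is a transcriptional coactivator that the Hippo kinases LATS1 and LATS2 hold in the cytoplasm by phosphorylation. The S127A form has an alanine in place of a serine whose phosphorylation retains the protein there, and YAP in the nucleus acts mainly through the DNA-binding TEAD factors. E6 leads p53 to degradation and E7 releases E2F factors from the retinoblastoma protein, so that cells enter the cycle without the usual brakes. The dorsal tongue is a stratified epithelium in which basal cells divide, cells above them make keratins and envelope proteins, and filiform papillae form hard, hair-like keratin.

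Adding YAP to E6-E7 changed the epithelium broadly. Most listed genes of the cornified envelope, of the hair-like papilla keratins and of suprabasal oral keratins fell, in places to near 0. Most mitosis, glycolysis and ribosome biogenesis genes listed rose, as did many YAP-TEAD targets and some simple-epithelium keratins, chemokines and cytokines. After the scaling described below, 15 of 29 mitosis, 17 of 29 glycolysis and 10 of 27 ribosome biogenesis genes were called higher. In all, 2925 of 21959 genes (13.3%) were differentially expressed genes (DEGs), defined by an adjusted p under 0.01 and an absolute log2 fold change above 1. Of these, 1787 (8.14%) were higher in EY mice and 1138 (5.18%) were lower. The log2 fold change (log2FC in brackets) is the mean log2(TPM + 0.1) of the EY mice minus that of the E mice, so that 1 means a doubling, and the test is limma's moderated test with p-values adjusted over all genes by the Benjamini-Hochberg method. "Rose" and "fell" are used below only for DEGs.

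In the main fit, of TPM values without scaling, the decreases were fewer and deeper than the increases. The median log2 fold change was 1.39 among the genes that rose and -1.84 among those that fell. A log2 fold change above 3 was reached by 168 of the genes that rose, and one below -3 by 233 of those that fell. The E and EY mice did not overlap for 2507 of the DEGs, 1567 higher and 940 lower, while 24.9% of all genes tested had no overlap. Some DEGs (210 higher and 190 lower) reached 0.1 TPM in fewer than 3 mice of the other group and passed the filter through 1 group only. The named ones are Bex1, Il24, Il19, Lhfp, Wnt7a, Adamts4, Ly6g and Cd177 among the higher, and Dlg2, Saa1, Gm38119 and 8 Krtap genes among the lower, and their values are given as a description. Without all such genes, 8.3% of 18997 were higher and 4.99% lower, and list counts without them are given below as "2-group" where they change. Without E mouse 1 the count of DEGs was 2590, and without EY mouse 3 it was 3038.

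TPM values are shares, and the whole distribution sat higher in EY mice: over all genes tested, the log2 fold change had a median of 0.277. Median-of-ratios scaling, which sets each mouse to a common typical gene, lowered that median by 0.23 to 0.047. After this scaling 1005 genes were higher and 1577 lower, so that the larger side changed from the increases to the decreases. With limma voom on recovered reads and no such scaling it changed as well, with 1379 higher and 1473 lower. All 1138 genes that fell were also called lower after scaling, and 1005 of the 1787 that rose were still called higher. Gene lists below are therefore given with their median, to be read beside 0.277 for all genes, and with their scaled median, to be read beside 0.047, and their counts beside the 8.14% and 5.18% of all genes.

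The 12 largest increases, taken among genes with no overlap between the groups, a mean of at least 1 TPM and no predicted symbol (such as Gm and digits), were mostly secreted proteins and keratins. Ppbp, a chemokine that attracts neutrophils, was 0, 54.9, 1.28, 0 and 0.812 TPM in E mice 1 to 5 and 55.5 to 484 (median 161) in EY mice (log2FC 7.29, SE 1.55, adjusted p = 0.0012). E mouse 2 came close to the lowest EY mouse, and the other 4 E mice were at or near 0. Orm1, an acute-phase plasma protein, was 0, 0.539, 0.549, 0.371 and 0.174 TPM in E mice 1 to 5 and 20.9 to 77.1 (median 55.6) in EY mice (log2FC 7.06, SE 0.70, adjusted p = 6.93e-07). Every EY mouse lay far above every E mouse. Slc2a3, a glucose transporter of high affinity, was 0.119, 0.202, 0.196, 0.0634 and 0.178 TPM in E mice 1 to 5 and 6.74 to 33.5 (median 15.9) in EY mice (log2FC 6.00, SE 0.42, adjusted p = 2.04e-08). It was close to undetected in all 5 E mice and present in all 6 EY mice. Bex1, a small adaptor protein of neurons and progenitor cells, was listed at 0 in all 5 E mice and at 0.888 to 19.2 TPM, median 4.61, in the EY mice, so no fold is given. The others were the cytokine Il24 (6.60), the keratins Krt19 (6.04) and Krt18 (5.68), the protease inhibitor Serpina3h (5.91), Pbp2 (5.90), the chemokines Ccl11 (5.39) and Cxcl1 (5.18), and Anxa3 (5.30), a calcium-dependent membrane protein, with log2 fold changes in brackets.

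The 12 largest decreases, chosen the same way, and so without predicted genes that fell as far, were all keratin-associated proteins, the small proteins that fill the space between keratin filaments in hair and in the hard parts of filiform papillae. Krtap1-3 was 1993, 467, 405, 1784 and 391 TPM in E mice 1 to 5 and 0 to 12.1 (median 3.37) in EY mice (log2FC -9.62, SE 1.30, adjusted p = 1.67e-05). Krtap9-3 was 2504, 713, 775, 2464 and 700 TPM in E mice 1 to 5 and 0 to 53 (median 13.5) in EY mice (log2FC -7.77, SE 1.25, adjusted p = 9.78e-05). E mice 1 and 4 had the highest levels of both, and each of the 5 E mice lay above every EY mouse. The others were Krtap9-1 (-9.53), Krtap2-4 (-8.86), Krtap4-13 (-8.80), Krtap4-8 (-8.26), Krtap4-7 (-8.17), Krtap1-4 (-8.12), Krtap4-6 (-7.90), Krtap4-16 (-7.80), Krtap4-2 (-7.77) and Krtap26-1 (-7.61), and the EY median of 8 of these 10 was 0. Where a level is at or near 0 the fold depends on the 0.1 TPM added before the log. The call of Krtap4-16 was lost in both fits of recovered reads (limma voom). Of all 24 keratin-associated protein genes tested, a family taken up after its values were seen, 22 fell, and the median log2 fold change was -7.38 (2-group: 13 of 13).

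**Figure D1:**
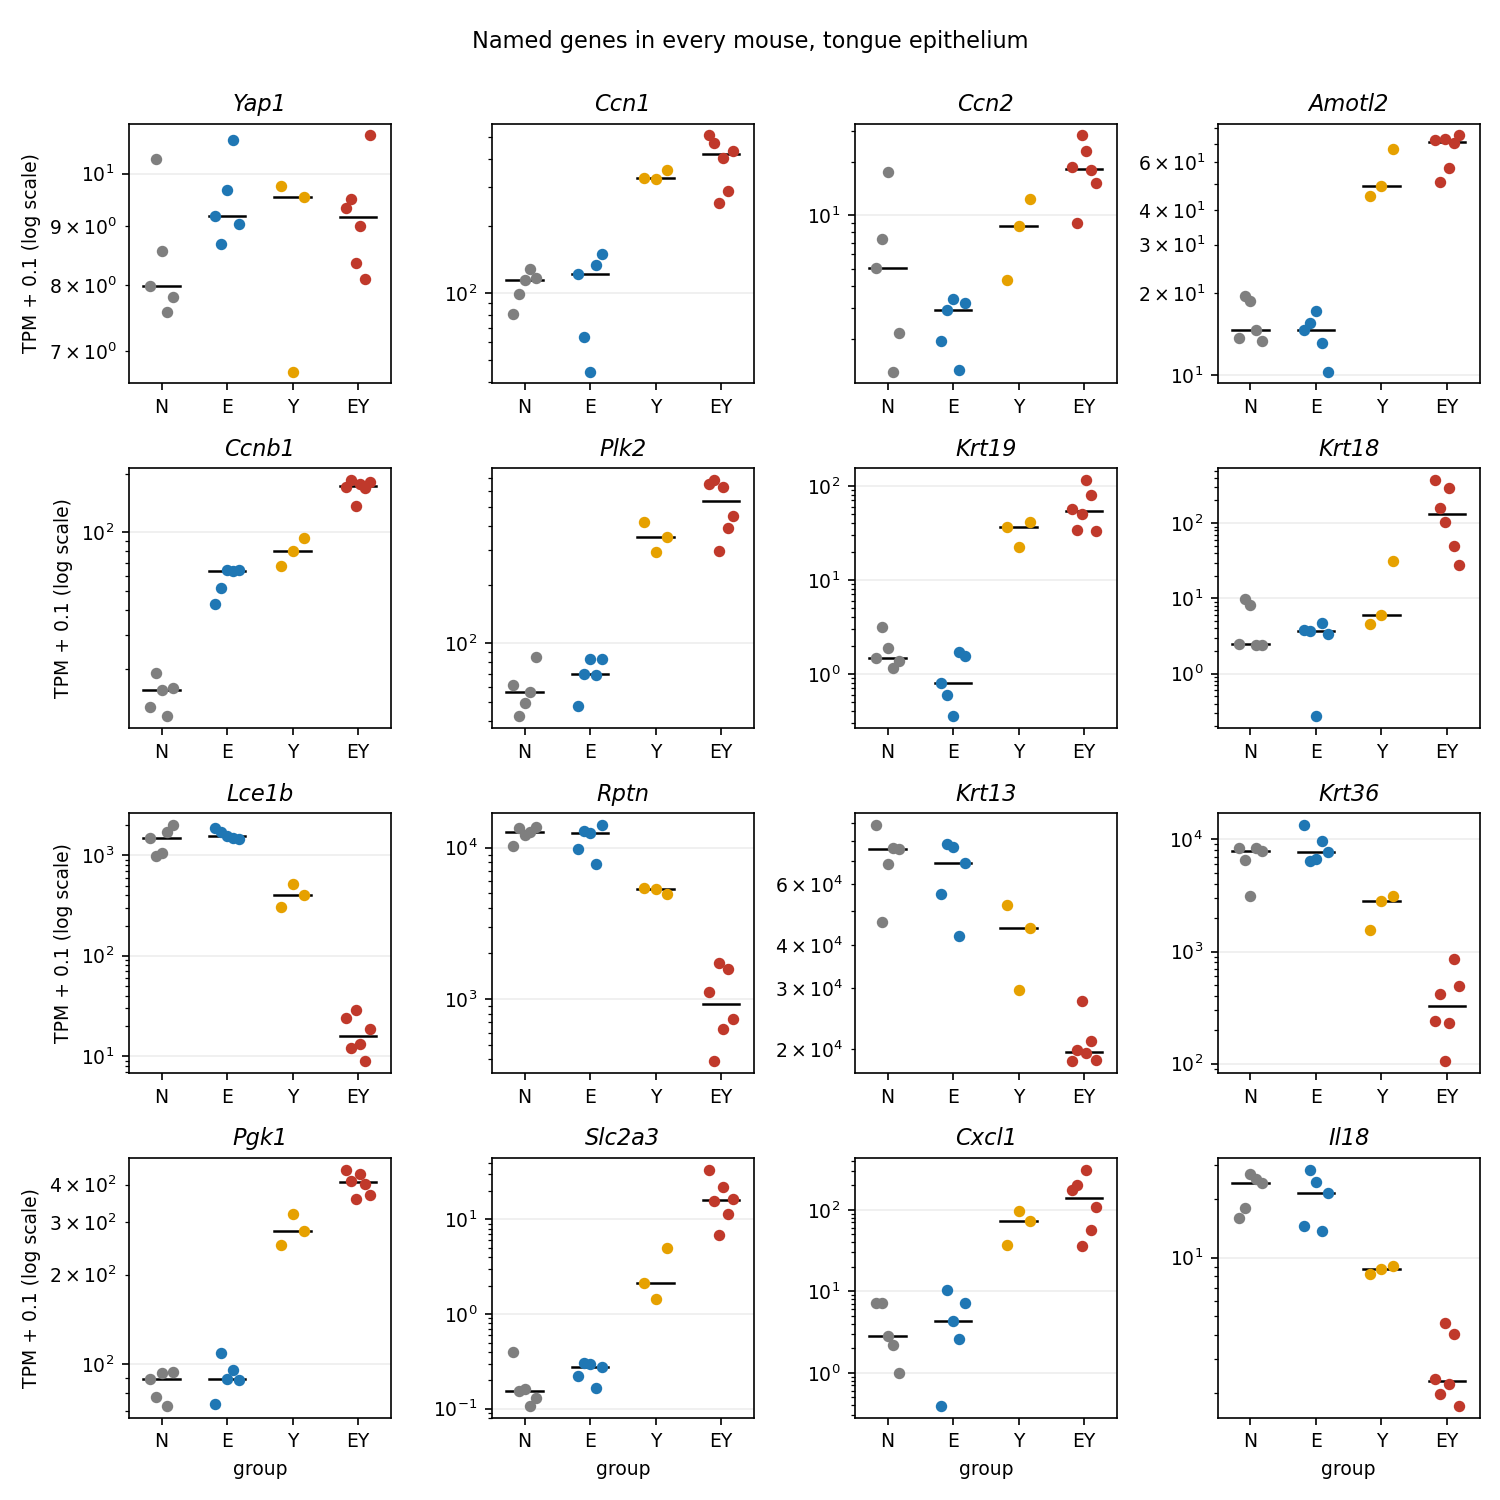
TPM plus 0.1 on a log scale for 16 named genes, 1 point a mouse and a black line at the group median, for 5 N, 5 E, 3 Y and 6 EY mice. Yap1 overlaps between all groups, while the E and EY mice are apart for the other 15 genes, with Lce1b, Rptn, Krt13, Krt36 and Il18 having their lowest group median in EY mice and the other 10 their highest.

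The mouse gene of YAP was no DEG. Yap1 was 9.08, 8.59, 9.57, 10.6 and 8.93 TPM in E mice 1 to 5 and 7.99 to 10.7 (median 9.07) in EY mice (log2FC -0.05, SE 0.11, adjusted p = 0.786), and -0.31 on the log2 scale after scaling. The EY range covered the E range. Whether reads of the transgene are counted under this gene is not stated in the sources used.

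Of the genes that YAP and TEAD factors are known to switch on, many rose. Of the 24 YAP-TEAD target genes tested, 13 rose and 0 fell, and their median log2 fold change was 1.10 (0.83 after scaling, when 10 were called higher and 1 lower). Without the 2 members that passed the filter through the EY mice, Lhfp among them, 12 of 22 rose, with a median of 1.03. Ccn1, a secreted matrix protein, was 121, 63.6, 44.3, 134 and 150 TPM in E mice 1 to 5 and 252 to 509 (median 419) in EY mice (log2FC 2.03, SE 0.28, adjusted p = 1.78e-05). Ccn2, its relative also known as connective tissue growth factor, was 1.86, 2.8, 3.26, 1.24 and 3.1 TPM in E mice 1 to 5 and 8.97 to 28.1 (median 18.2) in EY mice (log2FC 2.87, SE 0.53, adjusted p = 0.00034). Both were higher in all 6 EY mice than in any E mouse. Axl, a receptor tyrosine kinase, was 7.44, 7.34, 8.37, 5.74 and 7.22 TPM in E mice 1 to 5 and 22.1 to 31.8 (median 27.3) in EY mice (log2FC 1.89, SE 0.24, adjusted p = 8.7e-06). Tgfbr2, a receptor of TGF-beta, rose by 1.56 on the log2 scale, Ajuba, a scaffold that binds LATS kinases, by 1.05, and Crim1, a membrane protein that binds growth factors, by 1.32. The call of Crim1 was lost with a pseudocount of 1 TPM, and that of Ajuba in 6 other settings, scaling included, and without E mouse 5 or EY mouse 6, over a range of 0.78 to 1.13. Lhfp was higher too (1.97), but passed the filter through the EY mice and is given as a description. It was no DEG with a pseudocount of 1 TPM (over all settings 0.42 to 4.14).

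The Hippo pathway and its nuclear partners changed in part. Of 23 members tested, 6 rose and 0 fell, with a median of 0.43 (0.17 after scaling, with 4 higher and 0 lower), close to that of all genes. Amotl2, which binds YAP at cell junctions and is itself a YAP target, was 14.5, 15.4, 17, 13 and 10.2 TPM in E mice 1 to 5 and 50.5 to 75.1 (median 71.2) in EY mice (log2FC 2.24, SE 0.16, adjusted p = 1.96e-08). The lowest EY mouse was well above the highest E mouse. Lats2, a kinase that phosphorylates YAP, was 0.685, 0.386, 0.585, 0.467 and 0.328 TPM in E mice 1 to 5 and 1.28 to 1.93 (median 1.78) in EY mice (log2FC 1.63, SE 0.23, adjusted p = 3.27e-05), a call that was lost with a pseudocount of 1 TPM. Among the DNA-binding partners, Tead1 rose by 1.71 on the log2 scale, and Vgll3, a cofactor that competes with YAP for TEAD factors, by 1.83. Tead3 was lower in all 6 EY mice than in any E mouse (log2FC -0.71, SE 0.14, adjusted p = 0.000638), a change under the fold limit.

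Target promoters were searched for the motif GGAATG, or CATTCC on the other strand, the core of the sequence that TEAD factors bind. In the RefSeq promoters of build GRCm38.p6, 20 of the 26 listed YAP-TEAD targets had an entry, and 7 of these held the motif in the 250 bases before the start of the gene. Among the 10 with an entry that rose, 5 held it. Over all 32851 promoters of this table the share was 12.6%, and over all genes with an entry it was 14.4%. In the Hippo list, which shares 4 genes with the targets and whose median was close to that of all genes, 12 of 21 genes with an entry held it (57.1%), more than among the targets (35%) or those that rose (50%). The sequences below are those of the 3 targets that rose in every setting and held the motif, shown because these genes moved together, 5′ to 3′ on the strand of the gene, with the motif in capitals. They are Ccn1 (chr3:145649986-145650235, - strand), Amotl2 (chr9:102717554-102717803, + strand) and Axl (chr7:25788734-25788983, - strand). The motif began 103 bases before the start in Ccn1, 65 in Amotl2 and 233 in Axl. The other 2 were Ajuba and Crim1. A match is a description, not a site or a cause.
Ccn1: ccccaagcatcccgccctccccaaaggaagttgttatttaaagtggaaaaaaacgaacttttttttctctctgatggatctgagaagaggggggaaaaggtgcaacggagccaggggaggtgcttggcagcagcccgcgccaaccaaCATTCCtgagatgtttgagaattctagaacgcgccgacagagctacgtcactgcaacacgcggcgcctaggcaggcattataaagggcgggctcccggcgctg
Amotl2: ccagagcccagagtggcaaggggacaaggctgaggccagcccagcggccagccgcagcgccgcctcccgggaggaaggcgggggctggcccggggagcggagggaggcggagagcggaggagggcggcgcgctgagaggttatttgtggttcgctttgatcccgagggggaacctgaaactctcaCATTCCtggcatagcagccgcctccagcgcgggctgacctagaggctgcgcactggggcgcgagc
Axl: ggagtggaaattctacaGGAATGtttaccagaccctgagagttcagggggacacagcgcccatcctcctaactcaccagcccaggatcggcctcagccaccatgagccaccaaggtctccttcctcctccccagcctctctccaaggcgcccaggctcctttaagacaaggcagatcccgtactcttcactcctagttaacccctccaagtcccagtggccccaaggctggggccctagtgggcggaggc

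AP-1 factors, which often bind near TEAD factors and respond to growth signals and stress, fell in part. Of 11 tested, 3 fell and 0 rose, with a median of -0.61 (-0.87 after scaling). Fosb was 1041, 490, 326, 1161 and 1523 TPM in E mice 1 to 5 and 75.5 to 249 (median 133) in EY mice (log2FC -2.47, SE 0.40, adjusted p = 0.000102). The 5 E mice spread widely, with mouse 3 lowest, and all 6 EY mice lay below them. Fos had the same pattern at 1302, 663, 438, 1281 and 1538 TPM in E mice 1 to 5 and 128 to 469 (median 329) in EY mice (log2FC -1.76, SE 0.37, adjusted p = 0.00118), with a small overlap between E mouse 3 and the highest EY mouse. The call of Fos was lost when the skeletal muscle markers were added to the fit as a covariate (over all settings -2.03 to -1.42, adjusted p up to 0.0159). Jun was 877, 611, 674, 801 and 818 TPM in E mice 1 to 5 and 317 to 557 (median 467) in EY mice (log2FC -0.75, SE 0.18, adjusted p = 0.00336), and passed the fold limit only after scaling (-1.02). Among EGF-type ligands and receptors, 2 of 13 rose and 1 fell, with a median of 0.36 (0.14 after scaling). Of 12 MAPK feedback genes, 1 rose and 1 fell, with a median of 0.47 (0.21 after scaling), near the shares of all genes. Epgn, a ligand of the EGF receptor, rose by 1.32, and Phlda1, a gene induced by MAP kinase signaling, by 2.02. Nrg1 (1.39) rose too. Atf3 (-1.44), Btc (-1.15) and Spry1 (-1.05) fell too. The call of Atf3 was lost in 3 other settings and without any 1 of E mice 1, 4 and 5 and EY mice 1, 3, 5 and 6 (over all settings -1.76 to -1.13, adjusted p up to 0.0612). Nrg1 was no DEG with a pseudocount of 1 TPM (0.38 to 1.98, up to 0.00964). Btc was no DEG in 4 other settings and without EY mouse 6 (-1.60 to -0.57, up to 0.0134). Spry1 was no DEG in 4 other settings and without any 1 of E mice 1, 3, 4 and 5 and EY mice 1, 4 and 5 (-1.32 to -0.88, up to 0.0292).

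Most listed genes of mitosis rose in EY mice, with E6-E7 present in both groups. Of 29 mitosis and cytokinesis genes tested, 25 rose and 0 fell, with a median of 1.26 (1.00 after scaling, when 15 were called). Ccnb1, the cyclin that starts mitosis, was 43.2, 51.7, 64.5, 63.5 and 64.2 TPM in E mice 1 to 5 and 137 to 185 (median 174) in EY mice (log2FC 1.57, SE 0.14, adjusted p = 2.16e-07). Ect2, which starts the contractile ring, was 2.91, 4.72, 4.59, 6.18 and 4.38 TPM in E mice 1 to 5 and 14.4 to 21.2 (median 17.9) in EY mice (log2FC 1.97, SE 0.18, adjusted p = 3.29e-07). In both genes all 6 EY mice were above all 5 E mice. Other mitotic genes that rose were Anln (1.89), an anchor of the contractile ring, the kinase Cdk1 (1.39), the DNA untangling enzyme Top2a (1.33) and Foxm1 (1.27), a transcription factor of the late cell cycle. DNA replication genes followed with 10 of 30 higher and a median of 0.79 (0.53 after scaling, with 4 higher and 0 lower). Orc1, which marks replication origins, rose by 1.91, Mcm10, a factor of the replication fork, by 1.59, and Rrm1, which makes deoxynucleotides, by 1.35. Higher as well in EY mice: Plk1 (1.52) and Rfc4 (1.32).

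The G1 regulators were mixed. Of 15 tested, 4 rose and 1 fell, and the median of 0.26 turned to -0.01 after scaling (2 higher and 1 lower). Cdk6, a kinase that opens the cell cycle, was 0.997, 1.17, 0.72, 0.804 and 0.811 TPM in E mice 1 to 5 and 3.45 to 5.29 (median 4.63) in EY mice (log2FC 2.19, SE 0.18, adjusted p = 1.29e-07). Ccnd1, cyclin D1, its partner, was 59.9, 62.4, 47.6, 76.1 and 31.4 TPM in E mice 1 to 5 and 105 to 188 (median 145) in EY mice (log2FC 1.44, SE 0.20, adjusted p = 2.52e-05). Cdkn2b, an inhibitor of these kinases, was 18.3, 9.7, 12.9, 7.76 and 17.2 TPM in E mice 1 to 5 and 2.78 to 7.46 (median 5.44) in EY mice (log2FC -1.26, SE 0.27, adjusted p = 0.00113). For all 3 genes the groups did not overlap, with both activators above and the inhibitor below in EY mice. The p53 targets split as well, with 4 of 20 higher, 3 lower and a median of 0.27 (0.01 after scaling, with 2 higher and 3 lower). Plk2, a kinase of the stress response, rose by 2.83. Btg2, which restrains proliferation, fell (-1.90). Ccng1, cyclin G1, rose by 1.44, while Trp53inp1, a p53 cofactor, fell with a log2 fold change of -1.26. None of the 16 PRC2 and DNA methylation genes was a DEG (limma), with a median of 0.40 (0.14 after scaling). An increase was also seen for Ccnd3 (1.22), Ccnd2 (1.10), Gtse1 (1.06) and Tigar (1.06). A decrease was also seen for Sesn1 (-1.03). The call of Ccnd3 was lost with a pseudocount of 1 TPM, scaling or quantile normalization (over all settings 0.88 to 1.33, adjusted p up to 0.000672). Ccnd2 was no DEG in 4 other settings, scaling included, and without E mouse 5 (0.84 to 1.23, up to 0.00503). Gtse1 was no DEG in 5 other settings, scaling included, and without any 1 of E mouse 5 and EY mouse 1 (0.80 to 1.30, up to 0.0185). Tigar was no DEG in 6 other settings, scaling included, and without any 1 of E mouse 4 and EY mice 2 and 6 (0.80 to 1.28, up to 0.00511). Sesn1 was no DEG in 1 other setting and without any 1 of E mouse 4 and EY mice 1 and 4 (-1.32 to -0.80, up to 0.00104).

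Most listed late components of the cornified envelope, the protein shell of the outermost keratinocytes, fell. All 14 Lce1 genes, which encode late envelope proteins, fell, with a median of -6.22 (-6.48 after scaling), against a background of 5.18% of genes that fell. Lce1i was 1970, 1493, 1490, 1771 and 1290 TPM in E mice 1 to 5 and 7.95 to 22.2 (median 17.6) in EY mice (log2FC -6.60, SE 0.25, adjusted p = 5.2e-11), and Lce1b had a log2 fold change of -6.63. No EY mouse came near the lowest E mouse for Lce1i. Of 6 Lce3 genes, which skin makes after injury, 5 fell, with a median of -2.32 (-2.58 after scaling). Lce3a was 5083, 6237, 6857, 5328 and 6023 TPM in E mice 1 to 5 and 358 to 1409 (median 1272) in EY mice (log2FC -2.63, SE 0.31, adjusted p = 4.48e-06). Lce3d was the member not called (log2FC -1.14, SE 0.45, adjusted p = 0.0563). Similar genes of 1 family can share reads, and how the authors assigned such reads to each is not resolved here. Lce1c (-6.42), Lce3f (-2.48), Lce3c (-2.34) and Lce3b (-2.30) also fell.

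Most filaggrin-type proteins and main building blocks of the envelope fell too. Of 13 tested, 10 fell and 1 rose, with a median of -2.90 (-3.15 after scaling, with 0 higher and 10 lower). Rptn, repetin, an envelope protein abundant in tongue, was 9859, 12907, 12446, 7814 and 14157 TPM in E mice 1 to 5 and 388 to 1741 (median 924) in EY mice (log2FC -3.63, SE 0.31, adjusted p = 1.45e-07). Lor, loricrin, the main protein of the skin's envelope, was 11138, 5535, 9917, 3581 and 3579 TPM in E mice 1 to 5 and 221 to 1015 (median 360) in EY mice (log2FC -3.86, SE 0.41, adjusted p = 1.5e-06). No EY mouse reached the lowest E mouse for either. Fell too: Hrnr (-4.75) and Flg (-2.90), which bundle keratin filaments, Crnn (-3.87), cornulin of oral epithelium, Tchh (-3.36), trichohyalin of hair roots and papillae, Ivl (-2.16), involucrin, and Tgm3 (-2.53), which crosslinks the envelope. Casp14 (1.09) rose as well. The call of Casp14 was lost in 4 other settings, scaling included, and without E mouse 1 (over all settings 0.82 to 1.28, adjusted p up to 0.00571).

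Sprr genes, whose small proline-rich proteins also become part of envelopes and which respond to stress, rose in part. Of 15 tested, 7 rose and 0 fell, with a median of 1.52 (1.37 after scaling, when 4 were called higher and 1 lower; 2-group: 6 of 14 higher). Sprr2g was 30.4, 90.7, 118, 29.5 and 21 TPM in E mice 1 to 5 and 197 to 422 (median 239) in EY mice (log2FC 2.51, SE 0.49, adjusted p = 0.00058). Sprr2f was 5.24, 126, 51, 0.533 and 12.5 TPM in E mice 1 to 5 and 211 to 527 (median 276) in EY mice (log2FC 4.59, SE 1.02, adjusted p = 0.00168). E mice 2 and 3 were the highest of the E mice in both, and all EY mice were higher still. The call of Sprr2f was lost with the skeletal muscle covariate (over all settings 3.52 to 5.43, adjusted p up to 0.0131). Sprr2e, with the largest fold of the list (log2FC 4.84, SE 1.28, adjusted p = 0.00631), was no DEG in 6 of 17 other settings, scaling among them, nor without any 1 of E mice 1, 4 and 5 and EY mice 1, 2, 3, 4 and 6. Over all settings its log2 fold change ranged from 3.61 to 5.70 and its adjusted p reached 0.0284. Sprr2d (3.45) and Sprr2i (2.82) rose too. The call of Sprr2d was lost in 8 other settings, scaling included, and without any 1 of E mice 1, 4 and 5 and EY mice 1 to 6 (over all settings 2.83 to 4.09, adjusted p up to 0.0366). Sprr2i was no DEG in 2 other settings and without E mouse 1 (2.28 to 3.41, up to 0.0136).

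Most listed oral keratins fell. Of 11 basal and suprabasal oral keratins tested, 7 fell and 1 rose, with a median of -1.61 (-1.87 after scaling, with 0 higher and 9 lower). Krt13, the main keratin of soft oral epithelium and the most abundant of the list, was 56254, 78068, 76667, 42349 and 69074 TPM in E mice 1 to 5 and 18471 to 27609 (median 19696) in EY mice (log2FC -1.61, SE 0.27, adjusted p = 0.000129). Krt4, its partner in the filament, was 22320, 26955, 25712, 13175 and 23356 TPM in E mice 1 to 5 and 7519 to 11004 (median 8811) in EY mice (log2FC -1.29, SE 0.28, adjusted p = 0.0014). The call of Krt4 was lost with the skeletal muscle covariate (over all settings -1.55 to -1.13, adjusted p up to 0.0139). Krt76, a suprabasal keratin of the mouth, fell (-5.23). The E and EY mice did not overlap for any of these 3. Krt10, the suprabasal keratin of skin, fell with a log2 fold change of -5.57, Krt24 with -4.23 and Krt78, of upper layers, with -3.54. Lower as well in EY mice: Krt1 (-3.73).

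The basal keratins Krt14 and Krt5 were not lower. Of the 11 oral keratins tested, 2 had a log2 fold change above 0. Krt14, the basal keratin whose promoter drives Cre here, was 6796, 10595, 7353, 8285 and 5917 TPM in E mice 1 to 5 and 10196 to 24658 (median 17489) in EY mice (log2FC 1.06, SE 0.27, adjusted p = 0.00533), and the groups overlapped. Its call was lost in 5 other settings, scaling included (0.79), and without any 1 of E mice 1, 3 and 5 and EY mice 1, 2, 4 and 6, with adjusted p values of up to 0.0347 over all settings. Krt5, its partner, was 2992, 3512, 2805, 4001 and 2055 TPM in E mice 1 to 5 and 4756 to 7455 (median 5892) in EY mice (log2FC 0.98, SE 0.20, adjusted p = 0.000749), just under the fold limit.

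Keratins of simple epithelia, which line glands and ducts and are scarce in tongue epithelium, rose in EY mice in part. Of 9 stress and simple-epithelium keratins tested, 4 rose and 1 fell, with a median of 2.02 (1.78 after scaling). Krt19 was 0.697, 0.495, 0.252, 1.62 and 1.44 TPM in E mice 1 to 5 and 32.7 to 115 (median 53.7) in EY mice (log2FC 6.04, SE 0.42, adjusted p = 1.82e-08). Krt18 was 3.7, 3.54, 0.171, 4.69 and 3.26 TPM in E mice 1 to 5 and 28 to 373 (median 131) in EY mice (log2FC 5.68, SE 0.83, adjusted p = 3.51e-05). Krt8, the partner of Krt18, was 0.493, 0.666, 0.169, 1.12 and 0.725 TPM in E mice 1 to 5 and 1.6 to 87.2 (median 31.7) in EY mice (log2FC 4.71, SE 1.02, adjusted p = 0.00138). All 3 were low in every E mouse, and the EY mice, all higher, differed most among themselves for Krt8. The call of Krt8 was lost in both fits of recovered reads (over all settings 3.60 to 5.38, adjusted p up to 0.0841). Krt17, a keratin of hair and of wounds, rose by 2.41. Krt23 fell, with a log2 fold change of -1.45.

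Most hard keratins of filiform papillae fell. Of 12 tested, 11 fell and 1 rose, with a median of -5.10 (-5.35 after scaling). Krt36, the most abundant of those named here, was 13459, 6473, 6654, 9731 and 7730 TPM in E mice 1 to 5 and 105 to 850 (median 329) in EY mice (log2FC -4.74, SE 0.43, adjusted p = 2.66e-07). Krt84 was 1001 to 2572 TPM, median 1345, in the E mice and 33.7 to 139 TPM, median 80.7, in the EY mice (log2FC -4.29, SE 0.34, adjusted p = 7.69e-08). E mouse 1 had the most of both, and the highest EY mouse was far under the lowest E mouse. Krt86 had the lowest log2 fold change of the list (-6.64), and Krt90 was the member that rose (1.53). A decrease was also seen for Krt81 (-5.71), Krt34 (-5.70) and Krt33b (-5.59).

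Transcription factors of hard keratinization were lower in part. Of 10 tested, 6 fell and 0 rose, with a median of -1.51 (-1.72 after scaling). Hoxc13, which switches on hair keratin genes, was 20.4, 10.2, 15, 22.7 and 11 TPM in E mice 1 to 5 and 0.798 to 2.9 (median 1.68) in EY mice (log2FC -3.14, SE 0.34, adjusted p = 1.63e-06). Msx2, Dlx3 and Foxn1, regulators of hair and papilla formation, fell with log2 fold changes of -2.77, -2.23 and -1.43. Among 21 squamous differentiation factors, 3 fell and 1 rose, with a median of -0.27 (-0.53 after scaling, with 1 higher and 5 lower). Maf, needed for late differentiation, fell (-2.39), as did Ovol1 (-1.24), which ends proliferation above the basal layer. Elf3, an epithelial ETS factor, rose (1.52). Lef1 (-1.58) also fell. The call of Lef1 was lost with a pseudocount of 1 TPM (over all settings -2.41 to -0.55, adjusted p up to 0.00531).

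Basal progenitor factors did not move as a block, with 4 of 18 higher, 3 lower and a median of 0.12 that turned to -0.14 after scaling (2 higher and 4 lower). Sox9, a progenitor factor of hair follicles and glands, was 1.19, 5.15, 2.74, 0.242 and 3.51 TPM in E mice 1 to 5 and 11.4 to 27.5 (median 13.4) in EY mice (log2FC 3.12, SE 0.56, adjusted p = 0.000284). E mouse 4 was lowest, and the lowest EY mouse was above all E mice. Sox2, a factor of tongue and taste progenitors, was 117, 144, 129, 139 and 105 TPM in E mice 1 to 5 and 95.1 to 151 (median 124) in EY mice (log2FC -0.07, SE 0.15, adjusted p = 0.763), with full overlap. Itgb1, the beta-1 integrin that anchors basal cells, rose by 1.85. Pax9, which shapes filiform papillae, and Igfbp5, which binds insulin-like growth factors, fell (-1.33 and -2.50). At the basement membrane, 1 of 12 hemidesmosome and laminin-332 genes rose and 2 fell (median 0.38, 0.12 after scaling), with Col7a1 (-1.42), the collagen of anchoring fibrils, among those that fell. Bmi1 (1.01) rose as well. Col17a1 (-1.01) fell as well. The call of Bmi1 was lost in 6 other settings, scaling included, and without any 1 of E mouse 1 and EY mice 2 and 4 (over all settings 0.73 to 1.09, adjusted p up to 0.000418). Col17a1 was no DEG in 2 other settings and without any 1 of E mouse 4 and EY mice 3 and 5 (-1.29 to -0.93, up to 0.00229).

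**Figure D2:**
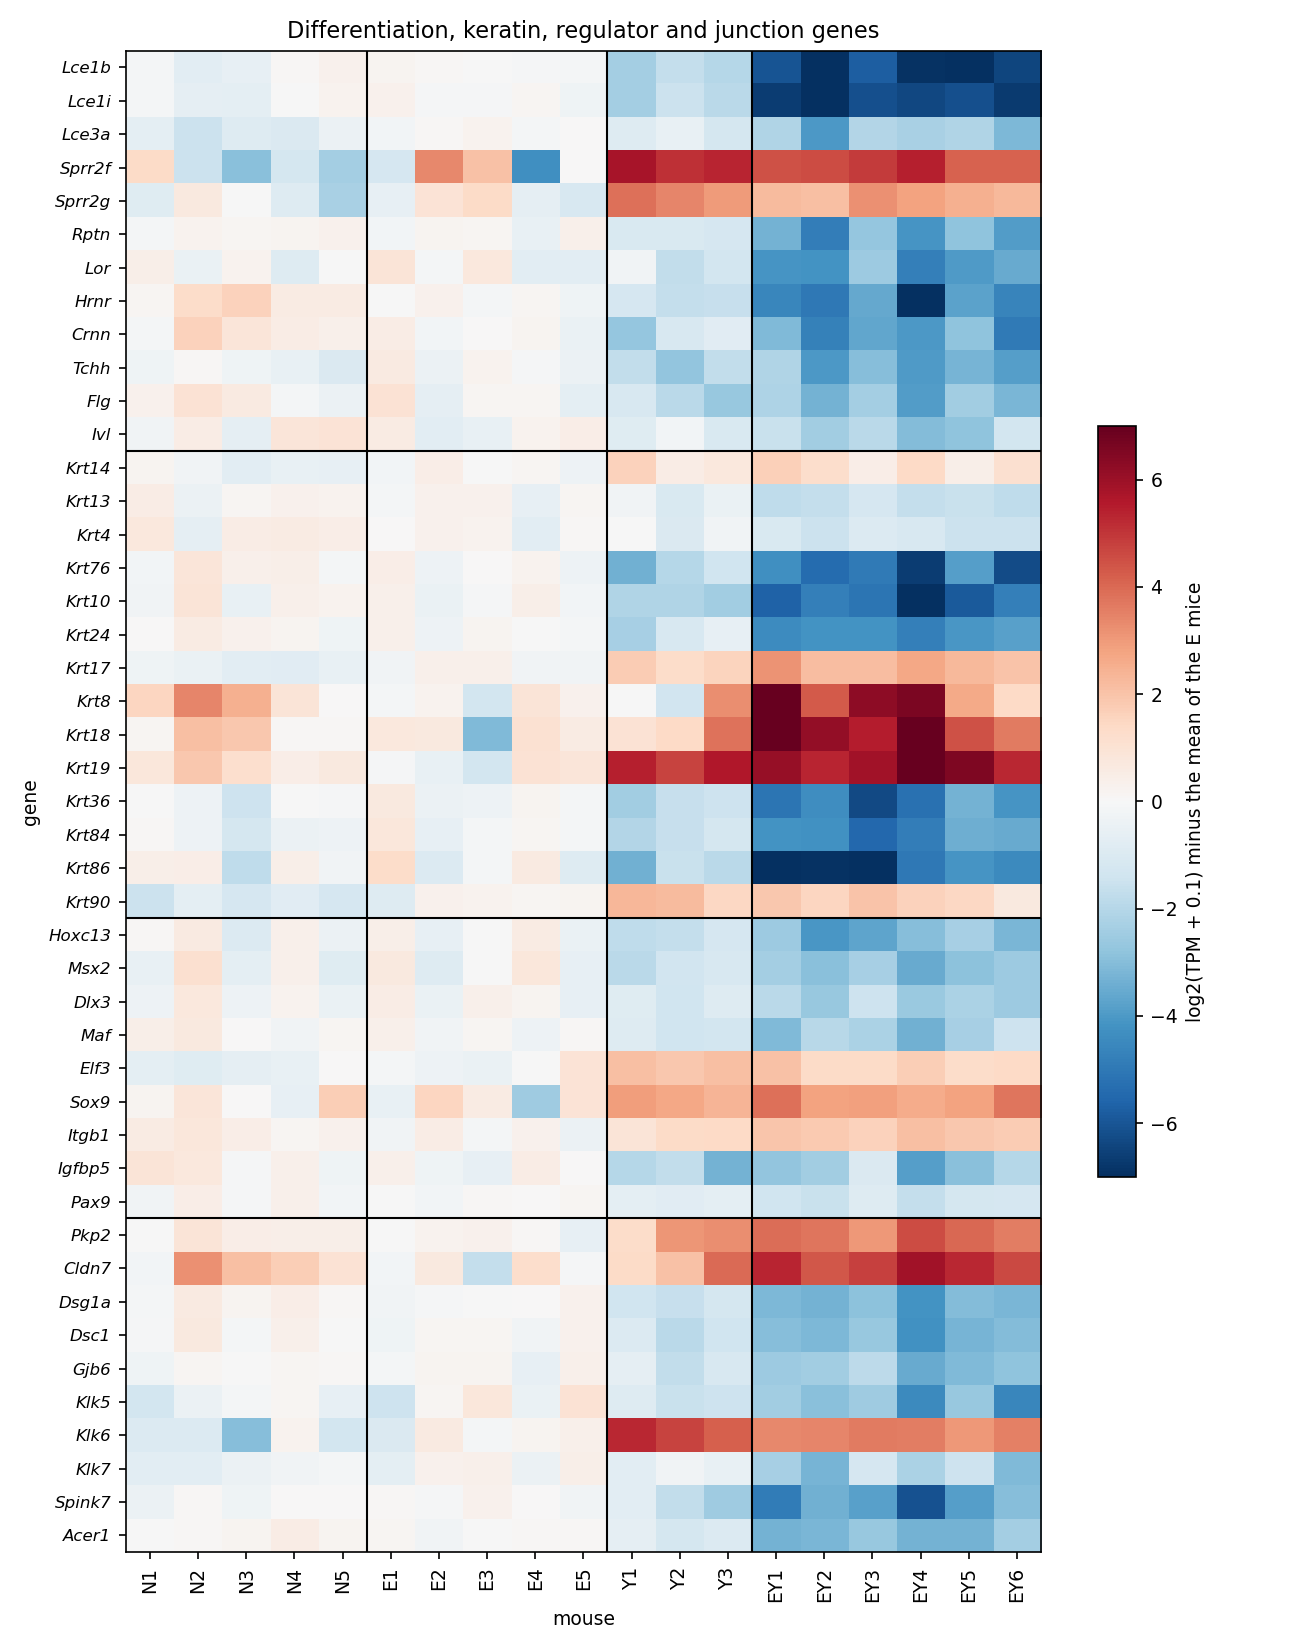
Colour gives log2(TPM + 0.1) of each gene minus the mean of the 5 E mice, with genes as lines and the 19 mice as columns, in blocks of envelope, keratin, regulator and junction or barrier genes. EY mice are blue for most envelope and papilla genes and red for Krt18, Krt19, Sox9 and Cldn7, and N mice look much like E mice in most lines.

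Some cell junction genes changed. Of 14 desmosome genes tested, 2 rose and 4 fell, with a median of -0.32 (-0.58 after scaling, with 1 higher and 4 lower). Pkp2, a plakophilin of heart and simple epithelia, was 0.0922, 0.131, 0.144, 0.113 and 0.0317 TPM in E mice 1 to 5 and 1.5 to 4.51 (median 2.74) in EY mice (log2FC 3.80, SE 0.34, adjusted p = 2.72e-07). Dsg1a, a desmoglein of upper layers, was 262, 289, 307, 310 and 386 TPM in E mice 1 to 5 and 16.8 to 41.3 (median 34.6) in EY mice (log2FC -3.29, SE 0.19, adjusted p = 3.87e-09). Dsc1, the desmocollin of the same layers, fell (-3.21), as did Cdsn (-2.42), corneodesmosin, which holds the outermost cells together. For tight and gap junctions, 3 of 18 rose and 3 fell, with a median of 0.48 (0.22 after scaling, with 2 higher and 4 lower). Cldn7, a claudin of simple epithelia, was 0.176, 0.417, 0, 0.646 and 0.202 TPM in E mice 1 to 5 and 6.48 to 18.4 (median 10.4) in EY mice (log2FC 5.04, SE 0.60, adjusted p = 4.91e-06). It was under 1 TPM in every E mouse and above 6 TPM in every EY mouse. Cldn23, a claudin of upper layers, and Gjb6, connexin 30, fell (-1.90 and -2.70). Polarity genes had 0 of 17 higher and 1 lower, with a median of 0.09 that turned to -0.17 after scaling (0 higher and 2 lower; 2-group: none of 16 called). Dsg3 (1.12) and Cldn12 (1.19) rose too. Dsg1b (-1.08), Gja1 (-1.02) and Dlg2 (-1.04) fell too. The call of Dsg3 was lost in 3 other settings, scaling included, and without E mouse 1 (over all settings 0.86 to 1.34, adjusted p up to 0.00164). Cldn12 was no DEG with scaling, quantile normalization or limma voom on scaled reads (0.93 to 1.36, up to 0.000363). Gja1 was no DEG in 2 other settings and without any 1 of EY mice 3 and 5 (-1.29 to -0.86, up to 0.00053). Dlg2, which passed the filter through the E mice and is given as a description, was no DEG with a pseudocount of 1 TPM (-3.33 to -0.17).

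Proteases that shed the outer layer and enzymes that make its lipids were lower in part. Of 12 kallikreins and Spink inhibitors tested, 5 fell and 1 rose, with a median of -0.61 (-0.87 after scaling). Klk5 and Klk7, proteases that digest desmosomes of the outer layer, fell (-3.27 and -2.24), as did Spink7, an inhibitor of such proteases (-4.17). Klk6 rose by 3.44, with no overlap. Of 15 barrier lipid genes, 6 fell and 0 rose, with a median of -0.78 (-1.05 after scaling). Aloxe3, a lipoxygenase, and Pnpla1, an acyltransferase, both needed to tie lipids to the envelope, fell (-1.76 and -1.99). Acer1, a ceramidase, was 22.8, 17.7, 20.6, 22 and 22.7 TPM in E mice 1 to 5 and 2.02 to 3.97 (median 2.15) in EY mice (log2FC -3.02, SE 0.17, adjusted p = 2.53e-09), with all EY mice far under the E mice. Lower as well in EY mice: Klk14 (-1.37) and Alox12b (-1.47).

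Signals that pass between cells changed in part. No gene of the Notch pathway (15 tested) was a DEG by limma, with a median of -0.02 (-0.28 after scaling). Among 14 Wnt ligands and inhibitors, 3 rose and 3 fell, with a median of -0.04 (-0.29 after scaling, with 1 higher and 3 lower; 2-group: 2 and 3 of 12). Wnt3, a ligand, was 2.23, 0.872, 1.58, 1.88 and 1.39 TPM in E mice 1 to 5 and 0 to 0.27 (median 0.108) in EY mice (log2FC -3.10, SE 0.37, adjusted p = 4.2e-06), and the secreted inhibitors Dkk3 and Sfrp1 fell (-1.56 and -1.41). Of 15 activin, TGF-beta and BMP genes, 4 rose and 1 fell, with a median of 0.27 (0.01 after scaling, with 2 higher and 1 lower). Fst, follistatin, which binds and blocks activin, was 8.88, 5.54, 9.7, 7.73 and 5.55 TPM in E mice 1 to 5 and 14.2 to 83.3 (median 42.6) in EY mice (log2FC 2.37, SE 0.39, adjusted p = 0.00012). Every EY mouse was above the E mice. An increase was also seen for Wnt10b (1.57), Wnt9a (1.56), Gdf15 (2.89), Inhba (2.61) and Fstl3 (1.15). A decrease was also seen for Bmp2 (-1.18). The call of Wnt10b was lost in 9 other settings, scaling included, and without any 1 of E mice 2, 3 and 5 and EY mice 1, 3, 4, 5 and 6 (over all settings 0.78 to 1.79, adjusted p up to 0.0351). Wnt9a was no DEG with a pseudocount of 1 TPM (0.79 to 1.75, up to 0.00348). Gdf15 was no DEG in 6 other settings, scaling included, and without any 1 of E mice 2 to 4 and EY mice 1, 2, 3, 5 and 6 (1.72 to 3.64, up to 0.104). Inhba was no DEG in 2 other settings and without any 1 of E mice 1 and 4 (1.33 to 3.35, up to 0.0311). Fstl3 was no DEG in 3 other settings, scaling included, and without E mouse 5 (0.88 to 1.25, up to 0.000638). Bmp2 was no DEG in 3 other settings and without any 1 of E mice 1, 3 and 4 and EY mice 2 and 4 (-1.51 to -0.92, up to 0.0154). Wnt7a was listed at 0 in all 5 E mice and at 0.0139 to 0.569 TPM, median 0.104, in the EY mice, so no fold is given, and its call was lost in 5 other settings, scaling included, and without any 1 of E mice 1 to 5 and EY mice 1 to 4, with adjusted p values of up to 0.0455 over all settings.

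Genes of invasion and matrix turnover rose in part. Of 26 genes of partial epithelial-mesenchymal transition and invasion, 10 rose and 0 fell, with a median of 0.72 (0.50 after scaling). Pdpn, podoplanin, a membrane protein at invasive fronts, was 1.43, 0.806, 2.4, 0.395 and 0.859 TPM in E mice 1 to 5 and 5.3 to 29.7 (median 10.8) in EY mice (log2FC 3.43, SE 0.49, adjusted p = 3.18e-05). The groups were apart. Thbs1, thrombospondin 1 of the matrix, rose by 3.55. Cav1, caveolin 1, and Cdh3, P-cadherin of basal cells, rose by 2.00 and 1.73. Of 19 matrix metalloproteinases, relatives and inhibitors, 7 rose and 2 fell, with a median of 0.97 (0.71 after scaling; 2-group: 5 and 2 of 16). Timp3, an inhibitor of these proteases, rose by 3.65, Adamts1, a protease of proteoglycans, by 1.94, and Mmp11, stromelysin 3, by 1.39. In the plasminogen activator system 3 of 8 rose and 0 fell, with a median of 0.42 (0.16 after scaling). Plaur, the receptor of urokinase, rose by 3.47, Plat, tissue plasminogen activator, rose by 3.74 and the inhibitor Serpinb2 by 1.73. Mmp8, which is also in the neutrophil list, was lowest in EY mouse 6 (0.472 TPM) and highest in EY mouse 4 (7.49 TPM), the EY mice with the lowest and highest neutrophil sums. Mmp8 (3.30), Mmp13 (2.58) and Adamts4 (2.19) also rose. Timp2 (-1.29) and Mmp28 (-1.11) also fell. The call of Mmp8 was lost with limma voom on scaled reads (over all settings 1.80 to 3.82, adjusted p up to 0.0106). Mmp13 was no DEG with a pseudocount of 0.01 TPM or the skeletal muscle covariate (1.73 to 2.93, up to 0.0206). Adamts4, which passed the filter through the EY mice and is given as a description, was no DEG with a pseudocount of 1 TPM (0.59 to 4.25). Timp2 was no DEG in 1 other setting and without any 1 of E mice 1, 2, 3 and 5 and EY mouse 1 (-1.83 to -1.02, up to 0.0163). Mmp28 was no DEG in 3 other settings and without any 1 of E mouse 4 and EY mouse 5 (-1.40 to -0.80, up to 0.0143).

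Glycolysis was the metabolic group with the most increases. Of 29 genes of glycolysis, lactate export and hypoxia tested, 24 rose and 0 fell, with a median of 1.49 (1.22 after scaling, when 17 were called higher and 1 lower). Pgk1, a glycolytic kinase, was 73.9, 109, 89.2, 95.7 and 88.5 TPM in E mice 1 to 5 and 357 to 449 (median 408) in EY mice (log2FC 2.15, SE 0.10, adjusted p = 4.05e-10). Gapdh, an enzyme of the middle of the pathway, was 757, 810, 725, 695 and 657 TPM in E mice 1 to 5 and 1988 to 3876 (median 2689) in EY mice (log2FC 1.89, SE 0.18, adjusted p = 4.5e-07). Ldha, which turns pyruvate into lactate, was 222, 329, 275, 247 and 253 TPM in E mice 1 to 5 and 672 to 979 (median 829) in EY mice (log2FC 1.61, SE 0.12, adjusted p = 4.22e-08). In these 3 genes the EY mice were all above the E mice. Import and export rose with the enzymes: Slc2a1, the common glucose transporter, by 1.49, Pfkfb3, which speeds up glycolysis, by 2.86, and Slc16a3, which exports lactate, by 3.90. Genes induced by low oxygen rose as well, with Adm, adrenomedullin, higher by 3.57, Egln3, an oxygen sensor, by 2.44, Vegfa, which attracts vessels, by 1.45, and Car9, a carbonic anhydrase, by 2.53.

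Many ribosome biogenesis and amino acid genes rose beside them, and fewer sterol genes. Of 27 genes of ribosome biogenesis and Myc, 18 rose and 0 fell, with a median of 1.22 (0.96 after scaling, when 10 were called). Npm1, nucleophosmin of the nucleolus, rose by 1.81. Odc1, which makes polyamines, rose by 2.32, and Ncl, nucleolin, also rose (log2FC 1.44 to 1.83 over all settings). Myc itself was 50, 46, 46.3, 58.2 and 53.6 TPM in E mice 1 to 5 and 77 to 119 (median 87.3) in EY mice (log2FC 0.83, SE 0.12, adjusted p = 3.34e-05), higher in all EY mice and under the fold limit. Of 20 amino acid transporters and serine pathway genes, 11 rose and 0 fell, with a median of 1.22 (0.96 after scaling). Phgdh and Psat1, enzymes of serine synthesis, rose by 1.47 and 1.82, Shmt2, which takes serine into mitochondrial folate metabolism, by 1.68 and the transporter Slc6a14 by 1.93. Of 23 genes of cholesterol synthesis, 8 rose and 0 fell, with a median of 0.90 (0.63 after scaling, with 3 higher and 0 lower). Idi1 and Cyp51, enzymes of that pathway, rose by 1.98 and 1.29. Wdr12 (1.65), Slc1a5 (1.58) and Sqle (1.26) rose as well. The call of Sqle was lost with scaling, quantile normalization or limma voom on scaled reads (over all settings 0.99 to 1.36, adjusted p up to 3.31e-05).

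Some inflammatory signals rose. Of 29 chemokine ligands tested, 8 rose and 1 fell, with a median of 1.74 (1.47 after scaling). Cxcl1, which attracts neutrophils, was 0.292, 10.4, 4.22, 2.5 and 7.03 TPM in E mice 1 to 5 and 36.1 to 310 (median 141) in EY mice (log2FC 5.18, SE 0.77, adjusted p = 4.62e-05). Ccl2, which attracts monocytes, was 4.37, 11, 14, 0.711 and 11 TPM in E mice 1 to 5 and 69.2 to 196 (median 102) in EY mice (log2FC 4.17, SE 0.81, adjusted p = 0.000528). E mouse 1 had the least Cxcl1 and E mouse 4 the least Ccl2, and no E mouse reached the EY range. Cxcl16, a membrane-bound chemokine, rose by 2.88 and Ccl20, which attracts Langerhans and T helper 17 cells, by 3.63. Cxcl10, an interferon-induced chemokine, was 13.6, 82, 46.9, 0.594 and 87.7 TPM in E mice 1 to 5 and 31.4 to 195 (median 68.7) in EY mice (log2FC 1.81, SE 1.16, adjusted p = 0.246), with wide overlap. Interferon-stimulated genes as a list had 0 of 28 called by limma and a median of 0.07 that turned to -0.19 after scaling, while between Y and N mice it was 1.11, with 0 called there too and 0 passing the test of the difference. Cxcl3 (4.45) rose too. Cx3cl1 (-1.44) fell too. The call of Cxcl3 was lost in 4 other settings and without any 1 of E mice 3 and 4 and EY mice 1, 2 and 4 (over all settings 3.45 to 5.17, adjusted p up to 0.0891). Cx3cl1 was no DEG in 1 other setting and without any 1 of E mice 1 to 3 and EY mouse 1 (-1.83 to -1.01, up to 0.0176).

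Cytokines of the IL-6, IL-20, colony-stimulating and IL-17 types rose in 6 of 17 members and fell in 0, with a median of 1.25 (1.14 after scaling). The 2-group count was 3 of 11 higher, with a median of 2.01. Il24, of the IL-20 type, was 0, 3.49, 0, 0 and 0 TPM in E mice 1 to 5 and 6.27 to 58.8 (median 23) in EY mice (log2FC 6.60), and passed the filter through the EY mice, as did Il19. Lif, of the IL-6 type, rose by 2.58 on the log2 scale, Il19 by 3.16 and Il23a, a subunit of IL-23, by 3.63. The IL-1 family was lower in 4 of 15 members and higher in 1, with a median of 0.30 (0.04 after scaling, with 1 higher and 6 lower). Il18, a cytokine stored in keratinocytes, was 14.4, 28.3, 24.3, 13.6 and 21.4 TPM in E mice 1 to 5 and 1.62 to 4.48 (median 2.21) in EY mice (log2FC -2.90, SE 0.26, adjusted p = 2.35e-07). Il36rn, which blocks the IL-36 receptor, and Il36b, which activates it, fell (-2.93 and -2.32). The receptor Il1r1 rose by 2.41. All EY mice were under the E mice for Il18 and Il36rn. Higher as well in EY mice: Csf3 (3.93). Lower as well in EY mice: Il36a (-1.67). The call of Csf3 was lost with limma voom on scaled reads (over all settings 2.54 to 4.74, adjusted p up to 0.014). Il36a was no DEG with only the E and EY mice in the fit (-2.27 to -1.45, up to 0.0148).

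TNF and NF-kB feedback genes rose in 5 of 18 members and fell in 0, with a median of 0.74 (0.48 after scaling). Tnfaip3, which ends NF-kB signaling, rose by 2.57, Icam1, an adhesion molecule for leukocytes, rose by 1.95 and Nfkb2 by 1.30. Alarmins and antimicrobial peptides split, with 6 of 19 higher, 5 lower and a median of 0.92 (0.66 after scaling). The 2-group counts were 5 and 4 of 16, with a median of 0.59. Defb4, a beta-defensin, was 516, 476, 540, 461 and 747 TPM in E mice 1 to 5 and 25 to 138 (median 54.5) in EY mice (log2FC -3.21, SE 0.44, adjusted p = 1.9e-05). Wfdc12, an antiprotease of the mucosa, fell (-3.31), while Defb14, another defensin, rose (1.45). S100a9, a subunit of calprotectin, was 7.27, 10.3, 12.8, 0.433 and 11 TPM in E mice 1 to 5 and 21.1 to 257 (median 155) in EY mice (log2FC 4.31, SE 0.85, adjusted p = 0.000648). Neutrophils hold the same protein in large amounts, and which cells made it here was not tested. Of 14 prostaglandin genes, 3 rose and 1 fell, with a median of 0.27 (0.01 after scaling, with 1 higher and 1 lower). Ptgs2, the inducible cyclooxygenase, rose by 3.85, and Ptger3, a prostaglandin receptor, fell (-2.38). An increase was also seen for Birc3 (1.28), Lcn2 (4.98), Chil3 (3.86), Ptges (1.22) and Slco2a1 (1.13). A decrease was also seen for Defb3 (-2.69). Saa1 (-4.62) was lower too, but passed the filter through the E mice and is given as a description. It was 15.7, 4.43, 5.58, 10.2 and 3.79 TPM in E mice 1 to 5. In EY mice 1 to 6 it was 0, 0, 4.68, 0, 0 and 0.953 TPM, with EY mouse 3 inside the E range (over all settings -6.84 to -2.41). The call of Lcn2 was lost with limma voom or limma voom on scaled reads (over all settings 3.39 to 5.76, adjusted p up to 0.0199). Chil3 was no DEG with the skeletal muscle covariate, limma voom or limma voom on scaled reads (2.28 to 4.74, up to 0.0279). Ptges was no DEG with scaling, quantile normalization or limma voom on scaled reads (0.96 to 1.34, up to 0.000892). Slco2a1 was no DEG in 12 other settings, scaling included, and without any 1 of E mice 1, 3, 4 and 5 and EY mice 1 to 6 (0.51 to 1.31, up to 0.0459).

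**Figure D3:**
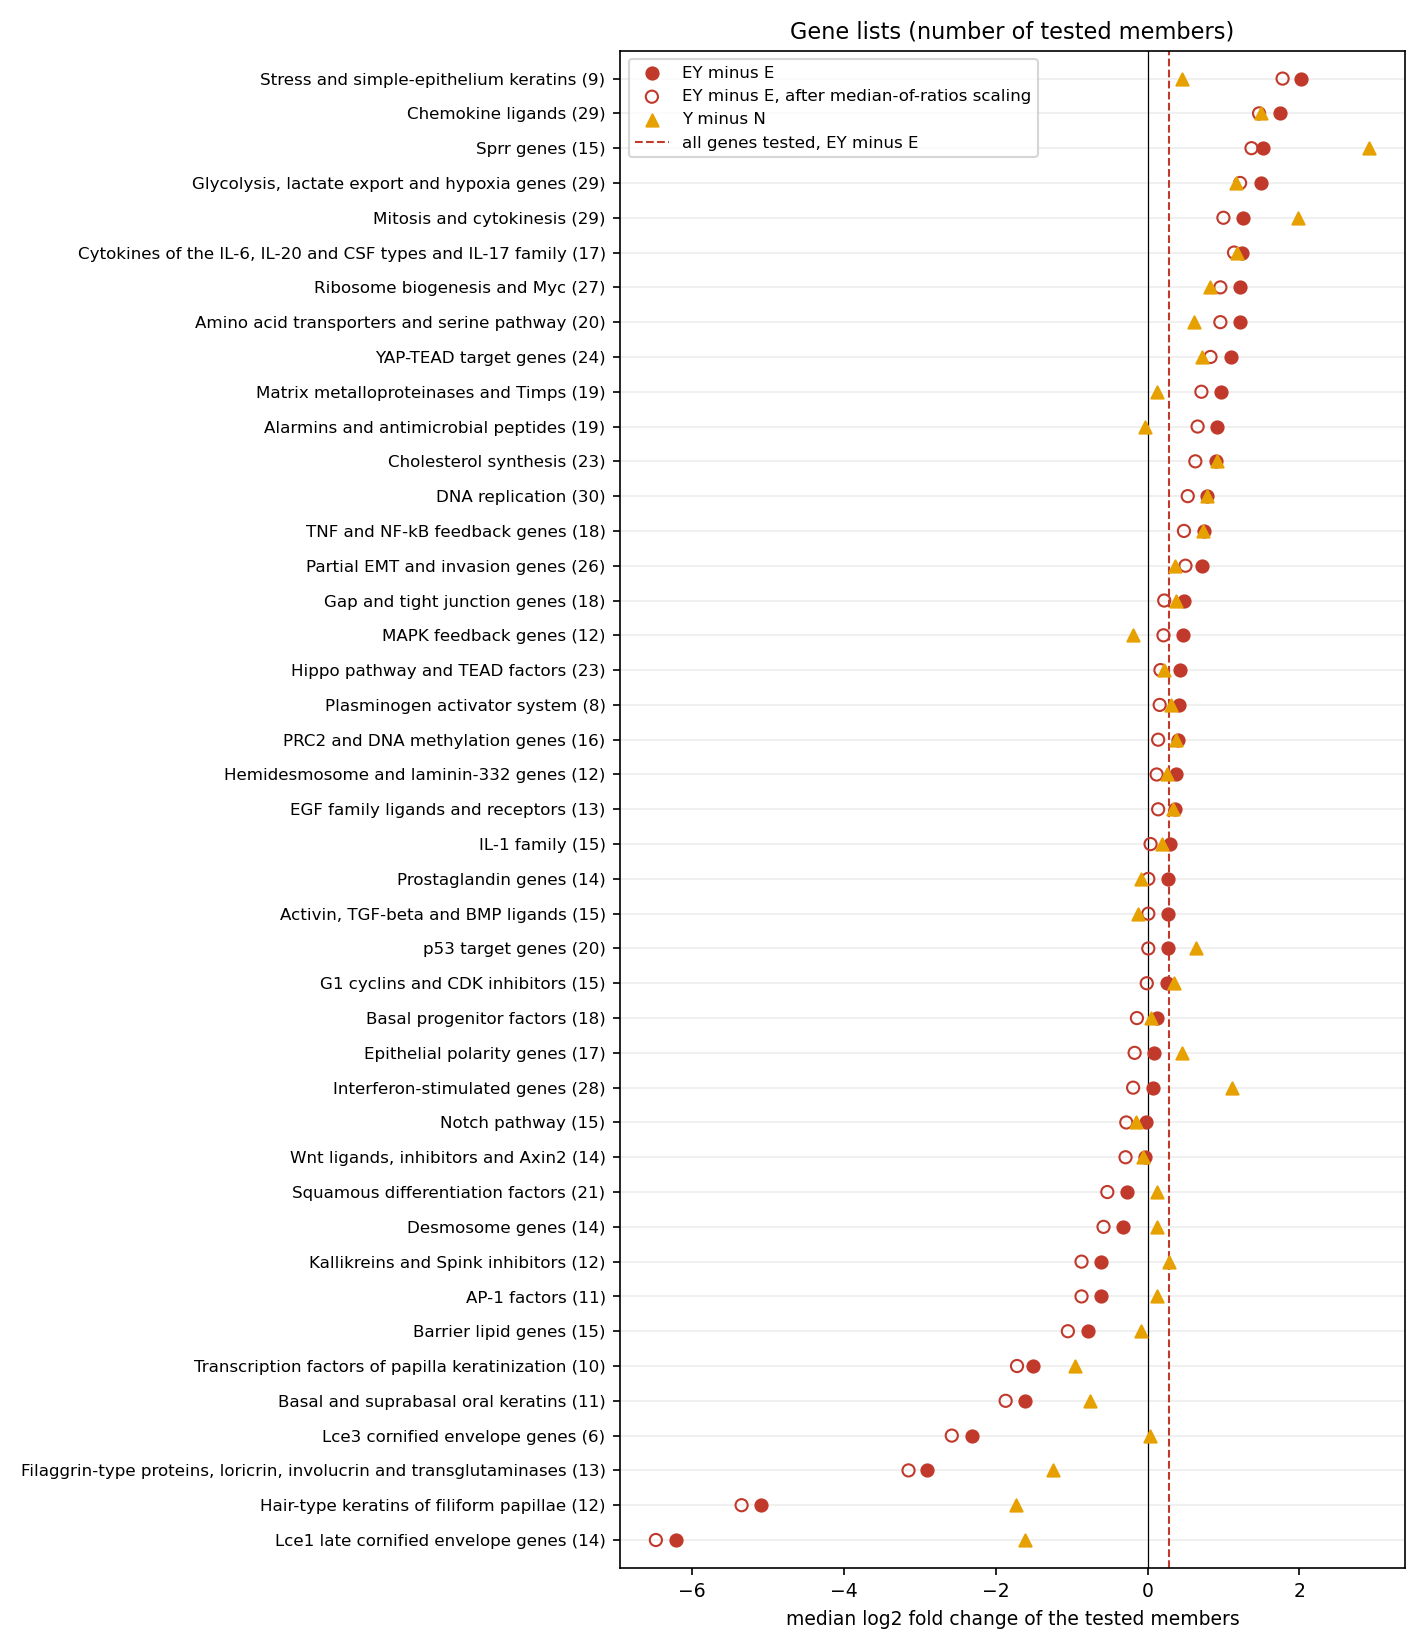
Median log2 fold change of the tested members of each of 43 gene lists between EY and E mice (filled circles), the same after median-of-ratios scaling (open circles) and between Y and N mice (triangles), with the number of members in brackets and the median of all genes tested between EY and E mice as a dashed line. The lists of Lce1 genes, hair-type keratins and filaggrin-type proteins lie lowest, and 4 lists (G1 cyclins and CDK inhibitors, basal progenitor factors, epithelial polarity genes and interferon-stimulated genes) change sign with scaling.

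Markers of other cell types show what else was in the samples. The epithelium list summed to 99708, 129086, 123090, 79044 and 111518 TPM in E mice 1 to 5 and 50537 to 69988 (median 61262) in EY mice, with Krt13 the most abundant gene, so epithelial transcripts dominated all 11 mice and the EY sums were the lower. Of its 12 members, 1 rose and 3 fell, all of them keratins described above, with a median of -0.08 (-0.34 after scaling). The neutrophil list summed to 41.5, 94.9, 57.4, 12.5 and 56.2 TPM in E mice 1 to 5 and 89.2 to 1065 (median 655) in EY mice, with S100a8, the other subunit of calprotectin, most abundant. EY mouse 6 was the lowest EY mouse, just under the highest E mouse. In EY mouse 6, S100a8 was 61 TPM and S100a9 21.1 TPM, while Ly6g, Retnlg and Cd177 were at 0. Of 18 neutrophil markers, 5 rose and 0 fell, with a median of 2.05 (1.86 after scaling, with 5 higher and 1 lower). The 2-group count was 3 of 12 higher, with a median of 1.49. Ly6g, a defining marker, was listed at 0 in all 5 E mice and at 0 to 2.31 TPM, median 0.865, in the EY mice, so no fold is given, and its call was lost with a pseudocount of 1 TPM. Retnlg, no DEG, was 0, 0, 0.352, 0 and 2.68 TPM in E mice 1 to 5 and 0 to 99.7 (median 38.1) in EY mice. Cd177 was at 0 in 4 of 5 E mice and 0 to 1.22 TPM, median 0.603, in EY mice (log2FC 2.08). These 3 passed the filter through the EY mice. The call of Cd177 was lost in 8 other settings and without any 1 of E mice 1 to 5 and EY mice 1 to 4, with adjusted p values of up to 0.0328 over all settings.

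Skeletal muscle, which lies under the tongue epithelium, was the cell type list with the largest median, 2.25 (1.99 after scaling), with 1 of 17 members higher and 0 lower. Its sum was 64.5, 43.4, 61, 31.5 and 212 TPM in E mice 1 to 5 and 82 to 1840 (median 275) in EY mice, and EY mouse 3 was highest. Acta1, skeletal actin and the most abundant of the list, was 21.5, 23.9, 20.3, 5.38 and 66.2 TPM in E mice 1 to 5 and 20.5 to 825 (median 102) in EY mice (log2FC 2.25, SE 0.98, adjusted p = 0.0819), with wide overlap, and turned to -0.11 when the muscle markers themselves were a covariate. Tnni2, a troponin of fast muscle, was the member that rose (log2FC 1.93, SE 0.47, adjusted p = 0.00339). Its call was lost without E mouse 2 (adjusted p = 0.012), after quantile normalization and with the muscle covariate. With that covariate the fit of all genes gave 2840 DEGs. The part of neutrophil and muscle RNA in the other results was not tested beyond this.

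The other lists had few or no calls. The T and NK cell list summed to 22.6, 39.7, 25.4, 7.86 and 40.1 TPM in E mice 1 to 5 and 37 to 66.9 (median 51.9) in EY mice, with Trbc2 most abundant and 0 of 18 members called by limma (median 0.85, 0.62 after scaling). Cd3e (0.67) and Cd4 (0.51), defining markers, had adjusted p values of 0.398 and 0.501. Macrophage and monocyte markers had 1 of 17 higher and 0 lower (median 1.21, 0.96 after scaling, with 1 higher and 1 lower). Their sum was 533, 574, 572, 124 and 896 TPM in E mice 1 to 5 and 348 to 618 (median 482) in EY mice, with Lyz2 most abundant. Langerhans and dendritic cell markers had 0 of 13 called (median 0.36, 0.10 after scaling, when 1 was called lower). Their sum was 297, 245, 238, 140 and 376 TPM in E mice 1 to 5 and 207 to 525 (median 295) in EY mice, with H2-Aa most abundant. Endothelial markers had 2 of 8 higher and 0 lower (median 1.16, 0.94 after scaling), with a sum of 4.2, 2.2, 1.37, 2.1 and 4.92 TPM in E mice 1 to 5 and 3.66 to 19.4 (median 8.14) in EY mice and Cldn5 most abundant, and Pecam1, a defining marker, was 0.165, 0.0134, 0.0752, 0.0555 and 0.241 TPM in E mice 1 to 5 and 0.0819 to 1.34 (median 0.256) in EY mice (log2FC 1.05, SE 0.44, adjusted p = 0.0731). Fibroblast and stroma markers had 0 of 14 higher and 1 lower (median 0.74, 0.48 after scaling), with a sum of 120, 102, 84.2, 66.7 and 136 TPM in E mice 1 to 5 and 36.9 to 231 (median 97.5) in EY mice and Dcn most abundant. The E and EY sums overlapped in each of these lists, although 5 of the 6 EY sums lay above every E sum in the T and NK list and in the endothelium list. Mrc1 (1.86), Esam (2.22) and Egfl7 (1.26) also rose. Dcn (-1.60) also fell. The call of Mrc1 was lost in 3 other settings and without any 1 of E mice 1, 3 and 4 and EY mice 3 and 6 (over all settings 0.63 to 2.54, adjusted p up to 0.0623). Esam was no DEG with a pseudocount of 0.01 TPM, only the E and EY mice in the fit, the mouse number in the model, the skeletal muscle covariate or limma voom on scaled reads (1.07 to 3.01, up to 0.0332). Egfl7 was no DEG in 8 other settings, scaling included, and without any 1 of E mice 1 to 3 and EY mice 1, 3, 4 and 5 (0.80 to 1.39, up to 0.0406). Dcn was no DEG in 4 other settings and without any 1 of E mice 1 to 5 and EY mice 1, 2, 4 and 5 (-2.26 to -1.37, up to 0.0224).

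No gene was called by limma in the remaining lists. B and plasma cell markers (5 tested, median 0.51, 0.32 after scaling) summed to 46.9, 13.8, 7.58, 1.27 and 11.1 TPM in E mice 1 to 5 and 2.49 to 59.3 (median 17.1) in EY mice, with Igkc most abundant. Nerve and Schwann cell markers (8 tested, median 0.58, 0.39 after scaling) summed to 8.58, 7.15, 7.01, 7.51 and 7.19 TPM in E mice 1 to 5 and 7.04 to 15.4 (median 7.99) in EY mice, with Mbp most abundant. Taste cell markers (7 tested, median -0.47, -0.73 after scaling) summed to 20.9, 23.8, 16.9, 26.5 and 16.1 TPM in E mice 1 to 5 and 10 to 19.2 (median 14.3) in EY mice, with Kcnj2 most abundant. Red blood cell markers (5 tested, median -0.12, -0.38 after scaling) summed to 381, 92, 172, 40.4 and 460 TPM in E mice 1 to 5 and 53.6 to 632 (median 116) in EY mice, with Hba-a1 most abundant. Salivary gland markers were close to absent, with 3 of 9 in the table tested (median 0.77, 0.66 after scaling), 2 at 0 in all 11 mice and a sum of 0.384, 2.62, 1.76, 0.366 and 0.625 TPM in E mice 1 to 5 and 0.38 to 1.85 (median 0.98) in EY mice, with Aqp5 most abundant. The E and EY sums overlapped in all 5 lists.

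**Figure D4:**
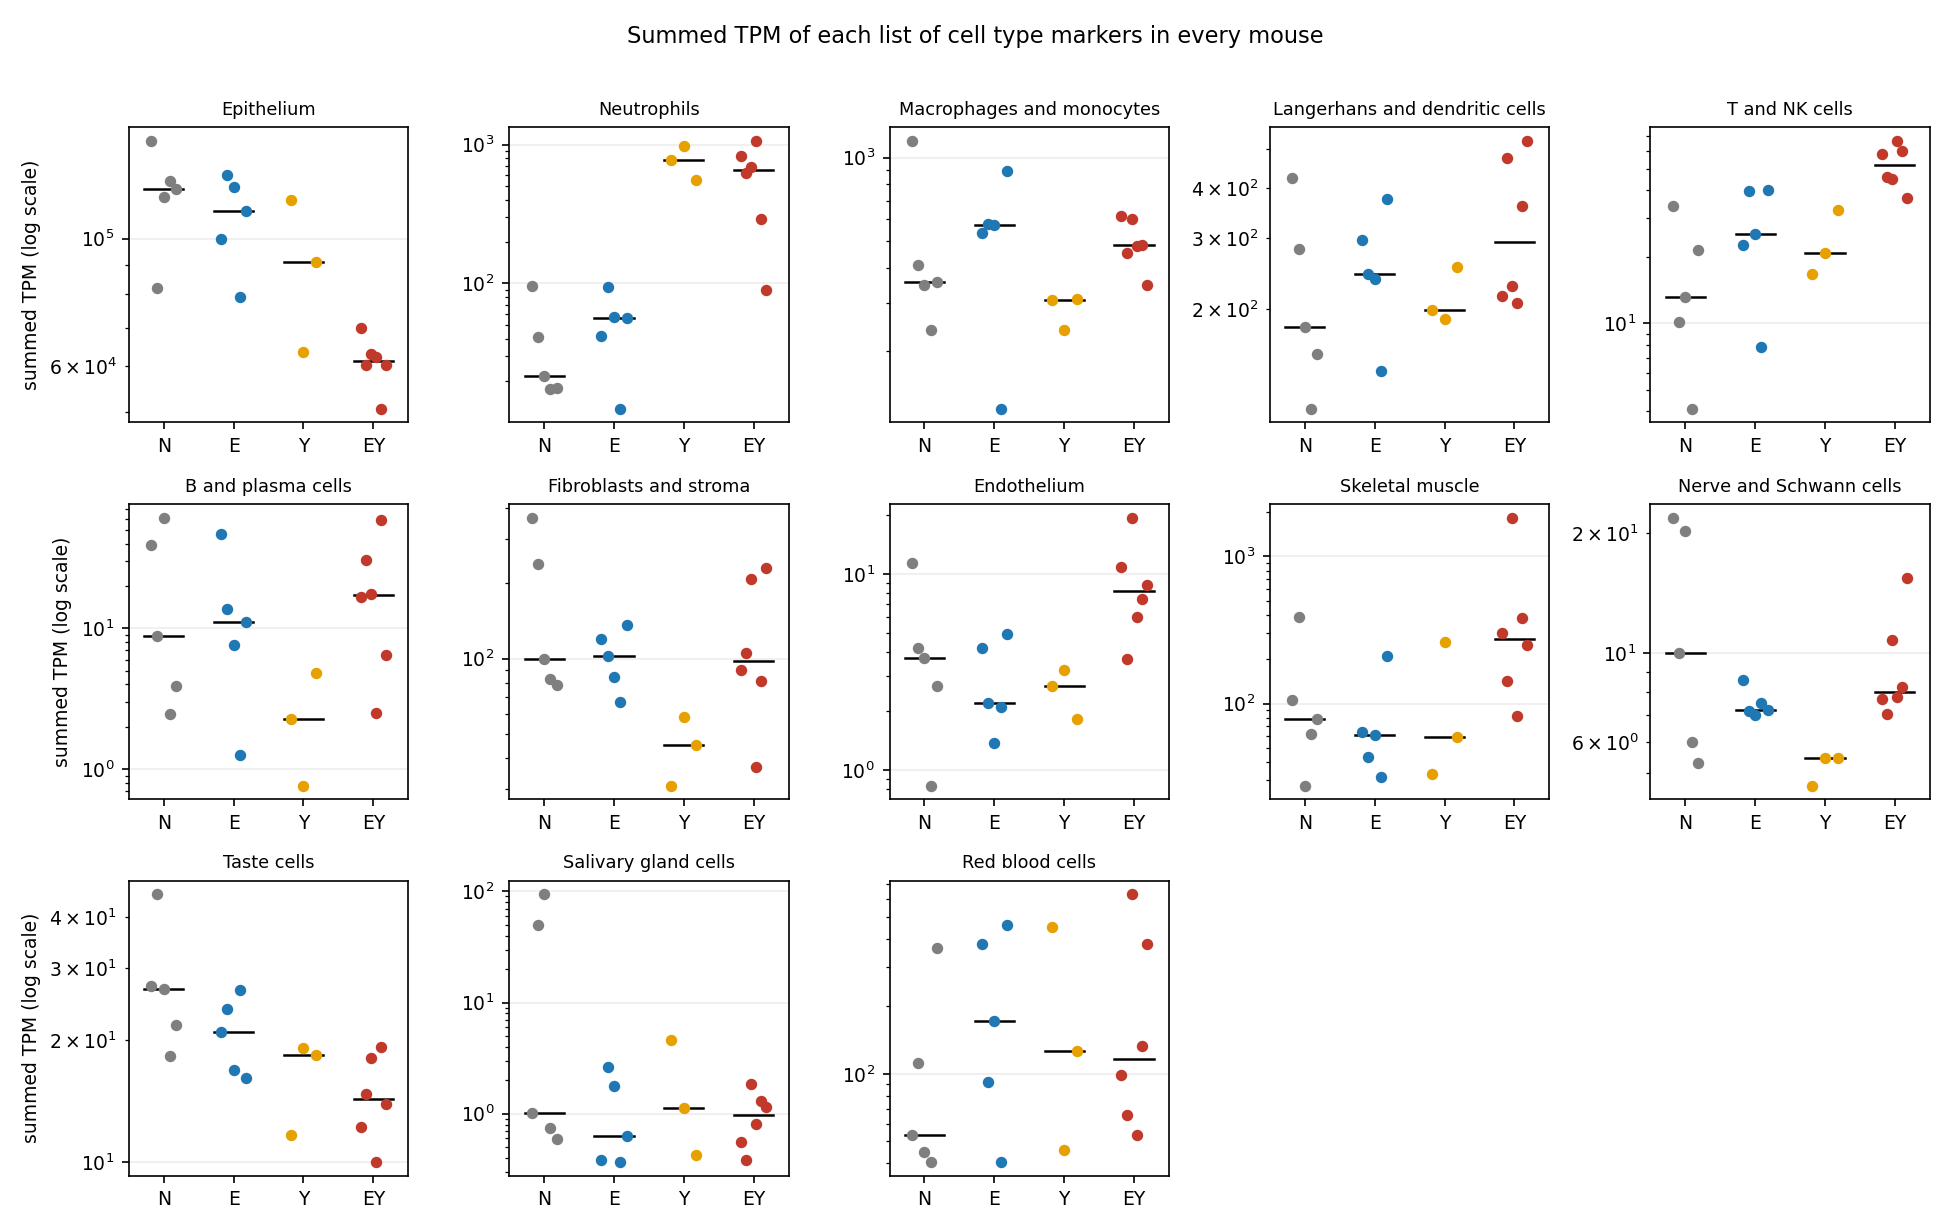
Summed TPM of each list of cell type markers, on a log scale, 1 point a mouse and a black line at the group median, in all 19 mice by group. The median epithelium sum is lowest in EY mice, whose sums overlap with those of Y mice. Neutrophil sums, in large part S100a8 and S100a9, are high in Y mice and in 5 of 6 EY mice. Ly6g was at 0 in all 3 Y mice, and Retnlg was 10.8, 0 and 21.2 TPM in Y mice 1 to 3. The muscle sum of EY mouse 3 stands above all others.

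YAP was also added without E6-E7, in Y mice against N mice, a comparison that shares no mouse with the first. There 1037 genes (4.72%) were DEGs, 790 higher and 247 lower, with 3 Y mice. Of these, 798 (77%) were DEGs in the same direction between EY and E mice, and 0 in the opposite direction. They made up 33.8% of the genes that rose with E6-E7 and 17% of those that fell. The log2 fold change between Y and N mice had the same sign in 95.7% of the genes that rose and 94.3% of those that fell. The median log2 fold change between Y and N mice was 0.95 over the genes that rose with E6-E7, -0.92 over those that fell and 0.145 over all genes. Across all genes tested, which are not independent replicates, Pearson's r between both sets of fold changes was 0.486.

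The difference between both effects of YAP was tested itself, as (EY - E) minus (Y - N). By the limits used for DEGs it passed in 40 genes (0.182%), with 38 below 0 and 2 above 0, and 3020 genes had an unadjusted p under 0.05. Without the fold limit 45 passed, Wdr12 among them (difference 0.95, adjusted p = 0.00582). The decrease of the Lce1 genes was deeper when E6-E7 was present, with 13 of 14 passing. Lce1l was 1198, 865, 1019, 1165 and 608 TPM in E mice 1 to 5 and 3.76 to 18.5 (median 9.14) in EY mice, against 741, 484, 456, 873 and 843 TPM in N mice 1 to 5 and 159, 255 and 268 TPM in Y mice 1 to 3 (difference -5.07, SE 0.52, adjusted p = 5.66e-05). The E and N mice overlapped, Y mice were lower than both, and EY mice were lowest. Lce1i (-4.93), Lce1j (-4.86) and Lce1b (-4.81) were likewise lower in Y mice and lowest in EY mice. Gm38119, a predicted gene among the 40, passed the filter through the E mice only, so its values are given as a description. It was 36.4, 41.2, 26.5, 17.1 and 20.4 TPM in E mice 1 to 5 and listed at 0 in all 6 EY mice, against 46.9, 13.8, 19, 45.3 and 60.6 TPM in N mice 1 to 5 and 12.5, 11.9 and 14.5 TPM in Y mice 1 to 3. With a group at 0, the size of its difference is set by the pseudocount (-10.08 to -3.54 over all settings).

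Krt24 (difference -2.72) and Acer1 (-1.90) also had a deeper decrease in the presence of E6-E7. The G protein regulator Gpsm1 (-2.13), the stress kinase Mapk13 (-1.48) and Prss8 (-1.38), prostasin, a protease needed for the skin barrier, differed as well. These fell with E6-E7, but between Y and N mice their log2 fold changes were only -0.00, -0.25 and -0.03. The mean of the E mice was above that of the N mice for Mapk13 (186 and 120 TPM) and Prss8 (149 and 102 TPM). Gpsm1 was 20.9, 16.4, 25.9, 20.8 and 20.3 TPM in E mice 1 to 5 and 3.01 to 6.88 (median 4.45) in EY mice, against 13, 11.9, 12.4, 10.9 and 15.7 TPM in N mice 1 to 5 and 13.3, 12.4 and 12.4 TPM in Y mice 1 to 3. EY mice were the lowest group and E mice the highest, and Y and N mice overlapped. The difference of Krt24 did not pass with the mouse number as a replicate block (adjusted p = 0.0113) or with only the 3 N mice that had Cre and rtTA without an effector, a choice made after seeing the data (0.0124 by limma). That of Prss8 did not pass in 8 other settings (0.0223 after scaling, up to 0.035 with the muscle covariate), nor without any 1 of the 11 mice other than EY mouse 5 (up to 0.0238). Gpsm1, Mapk13 and Prss8, and Krt24, Acer1, Kifc1 and Cdc20 for this difference, were chosen after their values were seen.

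Both genes above 0 had an increase with E6-E7 and little without. Fkbp11, a folding enzyme of the endoplasmic reticulum, was 0.715, 1.69, 0.86, 0.698 and 0.982 TPM in E mice 1 to 5 and 5.67 to 15.7 (median 12.2) in EY mice, against 2.38, 2.75, 3.17, 1.93 and 1.59 TPM in N mice 1 to 5 and 5.27, 2.65 and 2.56 TPM in Y mice 1 to 3 (difference 2.83, SE 0.47, adjusted p = 0.00803). Nudt19, a hydrolase of coenzyme A in peroxisomes, was 8.89, 13.1, 9.62, 9.53 and 9.01 TPM in E mice 1 to 5 and 23.5 to 28 (median 25.3) in EY mice, against 13, 14.7, 17, 11.3 and 11.4 TPM in N mice 1 to 5 and 9.88, 13.6 and 16.5 TPM in Y mice 1 to 3 (difference 1.38, SE 0.22, adjusted p = 0.00442). For both, all EY mice were above the mice of the other 3 groups. The difference of Fkbp11 did not pass in 6 other settings, the replicate block (0.0186) and both fits of recovered reads (up to 0.0302) among them, nor without any 1 of E mice 1, 3, 4 and 5 and EY mice 1, 2, 4 and 6 (up to 0.0203). That of Nudt19 did not pass with the replicate block (0.0136), with the muscle covariate (0.0131) or without any 1 of E mice 1, 3, 4 and 5 (up to 0.012).

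For 2 genes of cell division the difference was below 0 with the larger increase in the mice without E6-E7. Kifc1, a motor of the mitotic spindle, was 7.45, 6.52, 7.96, 10.5 and 7.52 TPM in E mice 1 to 5 and 8.64 to 15 (median 10.1) in EY mice, against 1.63, 1.76, 1.83, 1.41 and 1.18 TPM in N mice 1 to 5 and 8.51, 6.05 and 8.18 TPM in Y mice 1 to 3 (difference -1.78, SE 0.25, adjusted p = 0.00163). N mice were lowest, and E, Y and EY mice lay close together. Cdc20, which starts the exit from mitosis, was 78, 73.9, 96.7, 96.9 and 86.2 TPM in E mice 1 to 5 and 142 to 220 (median 163) in EY mice, against 22.4, 24.5, 15.2, 18.6 and 18.4 TPM in N mice 1 to 5 and 107, 76.8 and 99.5 TPM in Y mice 1 to 3 (difference -1.29, SE 0.21, adjusted p = 0.00771). The difference of Cdc20 did not pass in 4 other settings (up to 0.0383 with the replicate block), nor without any 1 of E mice 1, 3, 4 and 5 and EY mice 2, 4, 5 and 6 (up to 0.0203), and that of Kifc1 did not pass with the skeletal muscle covariate (0.0113). Of the 29 members of the mitosis list, 1 passed. The number of genes that passed depended on 1 mouse, since 73 genes passed without EY mouse 3.

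**Figure D5:**
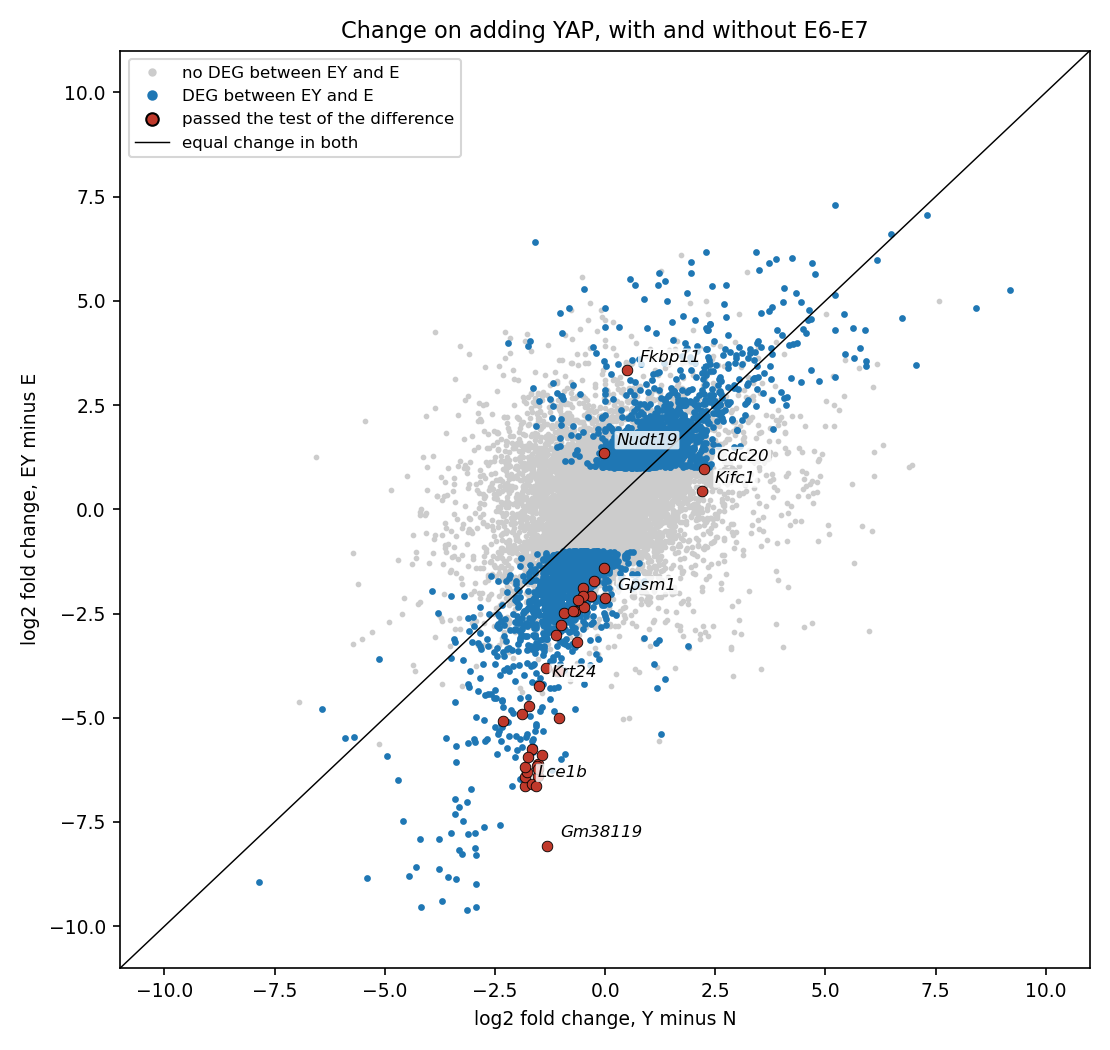
Each point is 1 of 21959 genes, with its log2 fold change between Y and N mice on the horizontal axis and between EY and E mice on the vertical axis, DEGs between EY and E in blue and the 40 genes that passed the test of the difference in red with a black edge. Most red points lie under the diagonal of equal change, the Lce1 genes among the lowest. The place of Gm38119, at 0 in all EY mice, is set by the added 0.1 TPM, and Fkbp11 and Nudt19 lie above it.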

How the data were processed

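PolyA RNA of tongue epithelium was measured in 19 mice, 1 library each. The authors aligned reads with STAR 2.7.9 to GRCm39, sorted them with SAMtools 1.7 and counted them per gene with HTSeq 0.13.5. The deposited table holds 24689 genes in TPM, each mouse adding up to 1000000, and how counts became TPM is not stated. Whole reads per gene were recovered from the TPM values to a tolerance of 0.01 reads for depth and for the voom settings.

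Genes with at least 0.1 TPM in 3 or more of the 11 E and EY mice were kept. limma 3.58.1 in R 4.3.3 fitted log2(TPM + 0.1) with 1 mean for each of the 4 groups over 19 mice (15 residual degrees of freedom), with moderated variances that follow the mean level. P-values were adjusted by Benjamini-Hochberg over all 21959 genes. The median SE was 0.279 for EY minus E and 0.437 for the difference of both YAP effects. The method was tested on simulated data.

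Lists were described by counts and medians, with no test. Members and lists were chosen with earlier results of these data known. Named genes are the 12 largest increases and decreases with no overlap, a mean of at least 1 TPM and no predicted symbol, up to 4 DEGs per list and direction, members whose role is described, Yap1, the 5 largest differences of both YAP effects in each direction, and markers of other cells. Other genes of the difference test were chosen after their values were seen, as the text says there. Some genes that the rule covers are not reported here. In 4 lists 1 member had a group at 0 throughout. Leaving it out, the medians were 0.88 (matrix metalloproteinases), 1.63 (cytokines), 2.02 (neutrophils) and -0.14 (Wnt genes). Other settings changed scaling, pseudocount, filter, model and covariates, or left out 1 mouse. Python 3.11.15 and matplotlib 3.10.9 made tables and figures.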

Additional observations from a re-analysis of the deposited data

Results flagged for a closer look

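In groups of 5 or 6 mice, 1 mouse can lie far from the rest. A group was marked where the gap between its highest or lowest mouse and the next, divided by the range of the group, was above Dixon's 95% critical value. Of 526 groups of named genes and marker sums, 39 (7.41%) were marked. The critical value was computed for normally distributed values, while TPM was used without a log and some groups were mostly at 0. The share marked by chance is therefore not known. The values are in TPM, each with that of the next mouse. E mouse 1 was the highest of the E mice for Adamts4 (0.214, next 0.0614) and the summed B and plasma cells markers (46.9, next 13.8). E mouse 1 was the lowest of the E mice for Krt90 (1.45, next 3.03) and Serpinb2 (27.4, next 50.9). E mouse 2 was the highest of the E mice for Ppbp (54.9, next 1.28), Il24 (3.49, next 0), Il23a (1.24, next 0.252), Anxa3 (2.23, next 0.864), Fkbp11 (1.69, next 0.982), Nudt19 (13.1, next 9.62) and Inhba (3.87, next 0.412). E mouse 3 was the highest of the E mice for Egln3 (23.8, next 15.2). E mouse 4 was the highest of the E mice for Psat1 (41.2, next 30). E mouse 5 was the highest of the E mice for Elf3 (46.7, next 23.8), Timp3 (0.625, next 0.111), Lif (1.17, next 0.433), Defb4 (747, next 540), Retnlg (2.68, next 0.352), Cd177 (0.0384, next 0) and the summed Skeletal muscle markers (212, next 64.5). EY mouse 1 was the highest of the EY mice for Tchh (344, next 182) and Krtap4-6 (1.46, next 0). EY mouse 3 was the highest of the EY mice for Krt13 (27609, next 21087), Acta1 (825, next 123), Tnni2 (204, next 80.7), Pecam1 (1.34, next 0.466), Saa1 (4.68, next 0.953), Defb3 (76.5, next 31.6) and the summed Skeletal muscle markers (1840, next 380). EY mouse 3 was the lowest of the EY mice for Ccnb1 (137, next 168) and Anln (33.8, next 44.3). EY mouse 4 was the highest of the EY mice for Ccl2 (196, next 114), Il19 (6.54, next 2.15) and Krtap4-13 (2.37, next 0). EY mouse 6 was the highest of the EY mice for Krtap2-4 (7.16, next 2.39), Krtap4-7 (3.01, next 0.653), Krtap4-16 (11.8, next 3.45), Krt1 (2.65, next 0.729) and Mmp28 (3.87, next 1.72).

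The change on adding YAP differed with and without E6-E7 in these named genes, by the test of the difference itself with the fold limit. The log2 fold change between EY and E mice minus that between Y and N mice was below 0 for Cdc20 (-1.29), Kifc1 (-1.78), Lce1b (-4.81), Lce1i (-4.93), Lce1j (-4.86), Lce1l (-5.07), Krt24 (-2.72), Acer1 (-1.90), Mapk13 (-1.48), Gpsm1 (-2.13), Lce1c (-4.60) and Prss8 (-1.38), and above 0 for Fkbp11 (2.83) and Nudt19 (1.38). Gm38119 passed the filter through the E mice only. Its value (-6.76), with 0 in all EY mice, is set by the added 0.1 TPM and is a description. No file, column or mouse of the table was left unused.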

How the results depend on the processing

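The counts were recomputed under 17 other settings and without each of the 11 mice in turn. With median-of-ratios scaling the DEGs higher in EY mice numbered 1005 in place of 1787, with quantile normalization 1064, and with limma voom on median-of-ratios scaled reads, a setting chosen after seeing the data, 1030, when the lower ones numbered 1763 in place of 1138. With a pseudocount of 1 TPM the lower DEGs numbered 757. Without a limit on the fold change there were 5784 DEGs, 4148 of them higher, the limit being what removes the rest. Genes whose YAP effect differs with and without E6-E7 numbered 117 in both voom fits and 146 at an adjusted p below 0.05, in place of 40. The fit of the 11 E and EY mice alone gives no such test. Scaling lowers the median of all genes by 0.23 on the log2 scale. For the other settings the cause was not tested.

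Leaving out 1 mouse gave 2590 to 3038 DEGs, 1542 to 1817 higher and 1032 to 1221 lower, and 28 to 73 genes whose YAP effect differs, with 73 without EY mouse 3. Of the 250 named genes tested, 216 to 227 were DEGs without 1 mouse, in place of 235, and 177 of the 235 were DEGs in every setting. Of all 2925 DEGs, 1305 (44.6%) were DEGs in every setting that tested them, 713 were lost without some 1 mouse, and none changed sign. The named genes were chosen in part for large changes, so their share says nothing about DEGs in general. With the skeletal muscle covariate, 2 named genes that were no DEGs changed sign: Yap1 became 0.04 and Acta1 -0.11. Of the 43 gene lists other than cell type markers, 23 to 28 had a median above that of all genes without 1 mouse, in place of 23.

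E and EY mice of the same number were not paired by any label. The correlation of their residuals was at most 0.068, 3 of 5 E mice correlated best with the EY mouse of their number, and with the number as a replicate block there were 2833 DEGs, 1734 higher and 1099 lower, and 27 genes whose YAP effect differs. With only the 3 N mice that had Cre and rtTA and no effector, chosen after seeing the data, there were 2896 DEGs and 30 genes whose YAP effect differs. Genes that reached 0.1 TPM in fewer than 3 of the 11 mice were not tested, so nothing is said of them at this depth.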
